A study of Homo sapiens with 6 samples.

Results

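The transcripts of the nuclear-encoded respiratory chain subunits were followed in Hep-G2 cells with and without depletion of CLGN. They were chosen by name from the protein-coding genes of the expression table, as SDHA, SDHB, SDHC, SDHD, NDUFAB1 and CYC1, all names that begin with NDUFA, NDUFB, NDUFC, NDUFS or NDUFV and a digit, and all names that begin with UQCR, ATP5, COX4, COX5, COX6, COX7 or COX8. The rule gave 92 of 58735 genes. Of these 92, 80 were among the 13074 genes with at least 1 FPKM (fragments scaled for gene length and library size) in at least 3 libraries, and these 80 were tested. Complex I held 38 members, complex II 4, complex III 10, complex IV 19 and complex V 21, with NDUFA4 and NDUFA4L2 counted in complex IV.

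The respiratory chain lies in the inner mitochondrial membrane. Complexes I and II take electrons from NADH and succinate and hand them to ubiquinone, complex III moves them to cytochrome c, complex IV passes them to oxygen, and complex V (ATP synthase) makes ATP from the proton gradient that the other proton-pumping complexes build. Most subunits are encoded in the nucleus, translated in the cytosol and imported, whereas a small catalytic set is encoded by mitochondrial DNA (mtDNA), and complex II is built from nuclear-encoded subunits alone. Hepatocytes are rich in mitochondria.

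Hep-G2 is an established human liver cancer line, given as hepatocytes of HCC (hepatocellular carcinoma) in the labels. To find which transcripts change with CLGN, a gene for a chaperone of the endoplasmic reticulum, RNA was sequenced from cells of the genotype CLGN knock down that carried a hairpin against it (sh-CLGN, treatment shCLGN, n = 3 libraries) and from cells of the genotype WT with a control hairpin (sh-NC, treatment shcontrol, n = 3 libraries), all of the batch 0DAY. Per the study's methods the hairpins came by lentivirus with puromycin selection, and 1 target sequence is given for each, so an effect of the hairpin itself and an effect of CLGN cannot be told apart. No label says that the libraries of a group came from separate cultures, so p-values measure the spread between these libraries, which may be technical.

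CLGN stood at 24.1, 21.05 and 26.1 FPKM in sh-NC and 9.48, 8.88 and 8.596 FPKM in sh-CLGN, with no overlap between the groups. Each library held 14955816 to 16244639 reads, and the groups overlapped in depth. Under sh-CLGN 5.49% to 5.80% of the reads fell on the mitochondrial genome, against 3.25% to 4.02% under sh-NC. The 9 hepatocyte markers summed to 7171 to 7635 FPKM under sh-CLGN and 7069 to 7306 FPKM under sh-NC. Of these 9, 5 were lower, among them TF at a log2 fold change of -1.62 and ALB at -0.90. Another 3 were higher (FGB at 0.72, TTR at 0.58 and AFP at 0.50). The 3 blood markers summed to at most 0.0903 FPKM. Of 11 fibroblast markers, 7 were tested and all 7 were higher in sh-CLGN. Among these 7, COL1A1, COL3A1, LUM and TAGLN were below 1 FPKM in every sh-NC library. They passed the filter only through sh-CLGN, which fixed their direction. The list summed to 135.7 to 140.8 FPKM in sh-CLGN against 15.2 to 17.5 FPKM in sh-NC, while DCN, THY1, POSTN and FAP had at most 3 reads in every library. The part of these differences in the results below was not tested.

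Lower calls outnumbered higher ones among the respiratory chain subunits in each of the 5 complexes. Of the 80 members tested, 44 (55.0%) were lower at an adjusted p of at most 0.05, against 39.0% of all genes tested, and 4 (5.0%) were higher, against 26.7%. Of the protein-coding genes tested, to which all members belong by the rule, 43.5% were lower and 25.2% higher. The members that rose were NDUFB3, NDUFS4 and NDUFA13 of complex I and UQCRB of complex III. Lower members made up 54.3% of those tested in complex I, 100% in complex II, 70.0% in complex III, 46.2% in complex IV and 44.4% in complex V. The shares of complexes IV and V were thus near the 43.5% of protein-coding genes. In 46 members every sh-CLGN library lay below every sh-NC library, which held for 41.5% of all genes, and in 4 every sh-CLGN library lay above, which held for 28.7%. The changes were small. No member (0 of 80) combined that adjusted p with a log2 fold change of 1 or more in either direction in limma, against 6.28% of all genes. Of the 80, 54 had an unadjusted p of at most 0.05. Some alternatives put 1 member past both thresholds. It was SDHD with voom on the recovered reads (log2 fold change -1.08) and with a pseudocount of 0.1 (-1.07), and NDUFV2 with TPM rescaling (1.16). There was also 1 without sh-NC replicate 1, sh-NC replicate 2, sh-CLGN replicate 1 or sh-CLGN replicate 2. The median log2 fold change of the members, on the log2(FPKM + 1) scale used throughout, was -0.24, beside -0.077 for all genes and -0.12 for protein-coding genes.

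The size of this excess depended on the scaling of the libraries. With TPM rescaling 84 members passed the filter, of which 28 were lower and 9 higher (33.3% and 10.7%, against 22.3% and 31.3% of all genes). Among these 9 was NDUFV2, which was below the filter as reported. With scaling by read totals 20 and 13 were lower and higher (25.0% and 16.2%, against 25.9% and 38.3%), and with quantile normalization 20 and 15 (25.0% and 18.8%, against 32.5% and 30.2%). Under the last 2 scalings the share of lower members was thus near or below that of all genes. Under these scalings the median of all genes moved by 0.20, 0.17 and 0.060, and the median of the members relative to it was -0.17 as reported, -0.24 with TPM, -0.15 with read totals and -0.019 with quantiles. With TPM and read totals the filter was applied anew, so the set of genes tested could change with the scaling. With no filter and no rescaling the median of all genes moved by 0.11, and that of the members relative to it was -0.23. The shifts are thus not those of scaling alone. The calls of 17 lower members held under all 18 alternatives, among them NDUFV1, NDUFA10, NDUFB8 and NDUFV3 of complex I, SDHD of complex II, CYC1, UQCRFS1, UQCRC1, UQCRC2 and UQCR11 of complex III, COX4I1 and COX7A2L of complex IV, and ATP5F1A, ATP5F1B, ATP5MC1 and ATP5MF of complex V. None of the 4 higher calls (0 of 4) held under all 18, though those of NDUFB3 and NDUFS4 held under the TPM, quantile, read total and GC scalings.

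**Figure D1:**
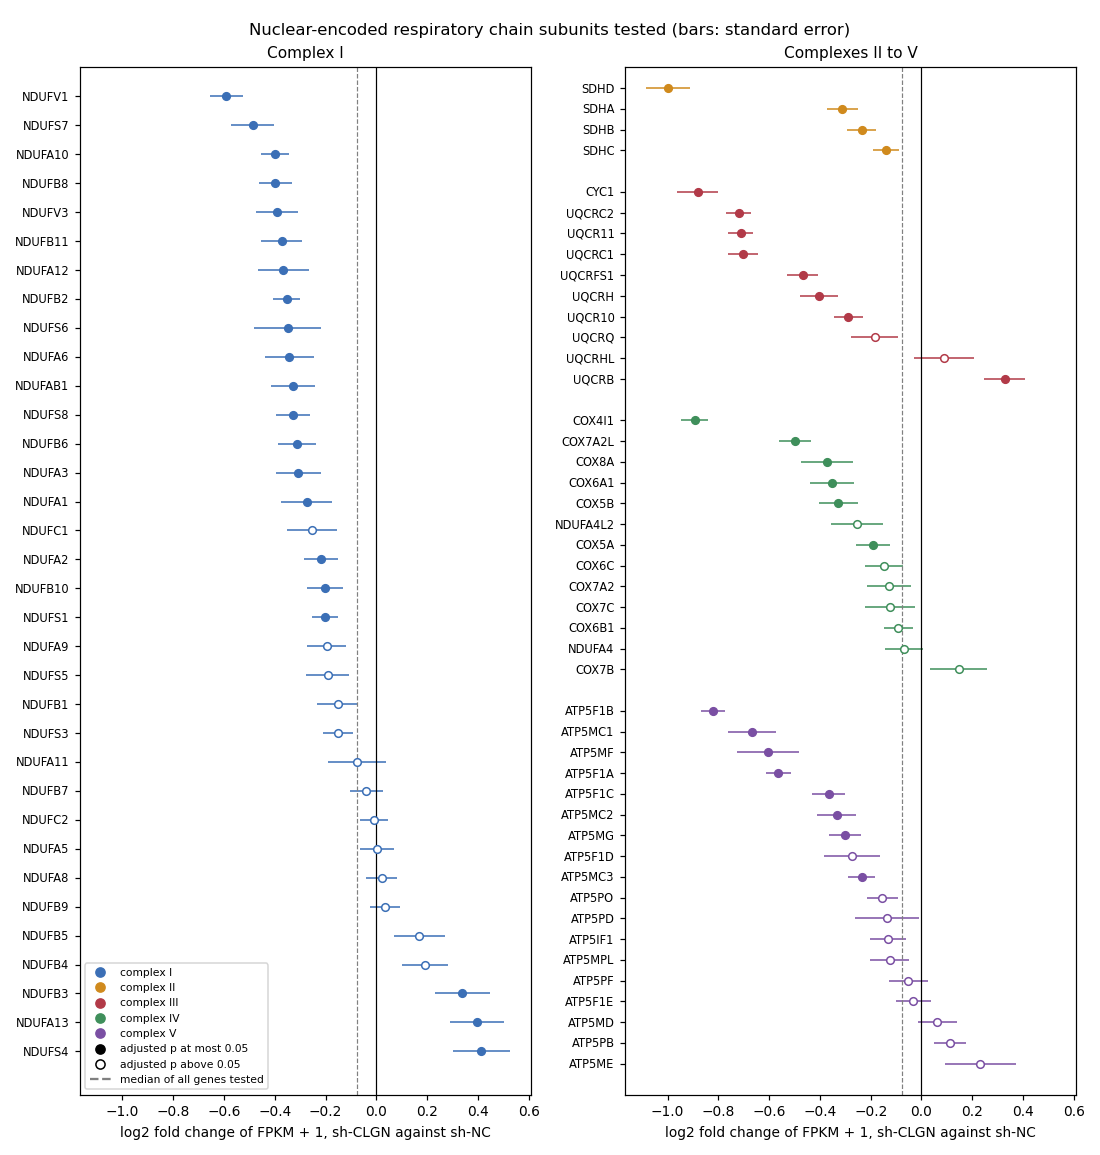
Log2 fold change (x axis, sh-CLGN against sh-NC, on the log2(FPKM + 1) scale) of 79 of the 80 members tested, with its standard error as a bar, for complex I on the left and complexes II to V on the right; filled points have an adjusted p of at most 0.05. The points run from -0.999 for SDHD to 0.41 for NDUFS4, and 65 of the 79 lie below 0, beside a dashed line at -0.077 for the median of all genes.

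The sequences upstream of several of these genes carry letters that are known binding motifs of regulators of respiratory chain genes, and they are shown for the member of each complex with the largest fall whose upstream bases held such a motif, and for 1 member that rose. RefSeq promoter windows (GRCh38.p14, 250 bases before to 50 after the start) matched 73 of the 92 members. The motifs searched on both strands were GCGCANGCG of NRF1, CCGGAAG of ETS factors such as GABPA, AAGATGGCG of YY1 and GGGCGGG of Sp1. The NRF1 letters nearly mirror themselves, so that matches on the 2 strands can overlap, and the ETS and YY1 letters can share the bases AAG. NRF1 letters were in 31.5% of the member windows, 8.05% of all 27305 windows and 15.7% of those of tested genes. ETS letters were in 27.4%, 10.7% and 20.6%, YY1 letters in 10.96%, 1.85% and 4.22%, and Sp1 letters in 26.0%, 32.9% and 54.5%, in the same order. A match is a description of letters and not of a bound site. Of 22 tested members with NRF1 letters, 14 were lower and 0 higher, at a median log2 fold change of -0.32, and of 44 without them, 24 were lower and 3 higher, at -0.23. With ETS letters 11 of 20 were lower and 1 higher, at -0.22, and without them 27 of 46 and 2, at -0.30. With YY1 letters 4 of 7 were lower and 1 higher, at -0.23, and without them 34 of 59 and 2, at -0.27. With Sp1 letters 12 of 18 were lower and 1 higher, at -0.33, and without them 26 of 48 and 2, at -0.25. The NRF1 split was thus not larger than the Sp1 split in the share of lower members. Lower shares of all tested genes by motif were not computed.

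The 250 bases upstream of the start are given 5′ to 3′ on the strand of the gene, with capitals for every base inside a motif match. They are chr19:1383657-1383906 (plus strand) for NDUFS7, chr11:112086623-112086872 (plus) for SDHD, chr19:1605463-1605712 (minus) for UQCR11, chr11:63974370-63974619 (plus) for COX8A, chr18:46104228-46104477 (minus) for ATP5F1A and chr19:19515975-19516224 (plus) for NDUFA13, the one that rose. NDUFS7 shows 1 stretch of NRF1 letters, SDHD 1 of NRF1 and 1 of ETS, UQCR11 2 of NRF1, 2 of ETS and 1 of Sp1, COX8A 1 of ETS, ATP5F1A 3 of Sp1 and NDUFA13 1 of ETS.
NDUFS7: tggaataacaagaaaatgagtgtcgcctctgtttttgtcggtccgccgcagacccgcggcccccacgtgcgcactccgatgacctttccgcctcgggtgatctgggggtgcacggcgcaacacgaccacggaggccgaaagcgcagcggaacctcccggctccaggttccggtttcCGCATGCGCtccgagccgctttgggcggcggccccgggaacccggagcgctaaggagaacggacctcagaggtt
SDHD: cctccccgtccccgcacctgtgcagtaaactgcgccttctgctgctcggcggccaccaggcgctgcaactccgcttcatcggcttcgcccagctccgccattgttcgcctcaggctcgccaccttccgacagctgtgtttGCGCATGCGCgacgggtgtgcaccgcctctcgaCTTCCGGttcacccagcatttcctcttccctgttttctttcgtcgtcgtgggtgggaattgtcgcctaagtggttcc
UQCR11: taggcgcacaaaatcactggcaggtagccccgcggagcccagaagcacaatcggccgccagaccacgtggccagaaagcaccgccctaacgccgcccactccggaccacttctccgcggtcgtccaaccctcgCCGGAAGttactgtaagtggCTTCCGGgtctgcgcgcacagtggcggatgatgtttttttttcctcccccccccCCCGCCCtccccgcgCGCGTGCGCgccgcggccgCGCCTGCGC
COX8A: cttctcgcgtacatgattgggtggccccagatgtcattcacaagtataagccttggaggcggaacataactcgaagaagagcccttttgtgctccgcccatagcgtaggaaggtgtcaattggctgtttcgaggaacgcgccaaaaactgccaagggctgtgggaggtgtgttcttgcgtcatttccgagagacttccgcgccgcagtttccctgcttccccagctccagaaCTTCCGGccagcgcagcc
ATP5F1A: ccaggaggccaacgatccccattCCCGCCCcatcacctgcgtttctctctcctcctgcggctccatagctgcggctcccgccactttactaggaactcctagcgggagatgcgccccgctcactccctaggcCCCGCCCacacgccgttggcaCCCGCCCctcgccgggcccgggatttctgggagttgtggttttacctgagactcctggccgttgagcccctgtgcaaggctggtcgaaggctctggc
NDUFA13: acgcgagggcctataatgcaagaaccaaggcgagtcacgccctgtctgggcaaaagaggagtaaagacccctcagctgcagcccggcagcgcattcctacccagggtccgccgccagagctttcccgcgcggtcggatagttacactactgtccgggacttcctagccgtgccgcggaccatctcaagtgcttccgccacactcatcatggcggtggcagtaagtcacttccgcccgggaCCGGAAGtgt

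Summed over their members, all 5 complexes had lower levels in sh-CLGN, and complex III had the lowest share of its control level. The 92 members summed to 4113, 3768 and 3793 FPKM in sh-NC and to 3167, 3068 and 2953 FPKM in sh-CLGN, so that sh-CLGN held 78.7% of the level of sh-NC. Complex III went from 515.0 ± 13.6 to 357.3 ± 13.3 FPKM (SD, n = 3), or 69.4%, and complex V from 1168 ± 41.0 to 831.1 ± 29.4 FPKM, or 71.1%. Of the fall in complex V, 72.3% was that of ATP5F1B alone. Without this gene, a split made after the values were seen, complex V was at 84.6% in summed FPKM and 91.3% in the share of all reads, with no overlap. Complex II was at 75.6%, complex IV at 83.2% and complex I at 86.5% of sh-NC, and in each complex the groups did not overlap. As a share of all reads, which carries no size factor, the 92 members took 0.926%, 0.884% and 0.891% with the control hairpin and 0.808%, 0.787% and 0.752% with sh-CLGN, or 86.9% of the control. On that measure complex III was at 78.9%, complex V at 81.4%, complex II at 91.5% and complex I at 93.9% with no overlap. Complex IV was at 91.1% and its groups overlapped, with 0.125% to 0.138% of reads under sh-CLGN and 0.136% to 0.152% under sh-NC. Of the reads outside the mitochondrial genome complex I took 95.9% of its control share, and its groups then overlapped too.

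The 13 mtDNA-encoded subunits, which share complexes I, III, IV and V with these members, were higher in sum. They summed to 39176, 30011 and 32585 FPKM in sh-NC and to 42684, 42749 and 46655 FPKM in sh-CLGN, with no overlap. Of the 13, 8 rose and 0 were lower, at a median log2 fold change of 0.49. MT-ND2 (log2 fold change 1.084 ± 0.095, adjusted p = 4.06e-05) and MT-ND1 (log2 fold change 1.056 ± 0.11, adjusted p = 8.86e-05) of complex I rose most, while MT-CO2 (0.041) and MT-CO3 (0.10) of complex IV and MT-ATP6 (0.16) of complex V did not pass the test. Neither did MT-ATP8 (0.26), nor MT-ND3, whose mean was lower in sh-CLGN (log2 fold change -0.13 ± 0.20, adjusted p = 0.598). Lower levels in bulk RNA cannot tell fewer expressing cells from less RNA per cell.

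**Figure D2:**
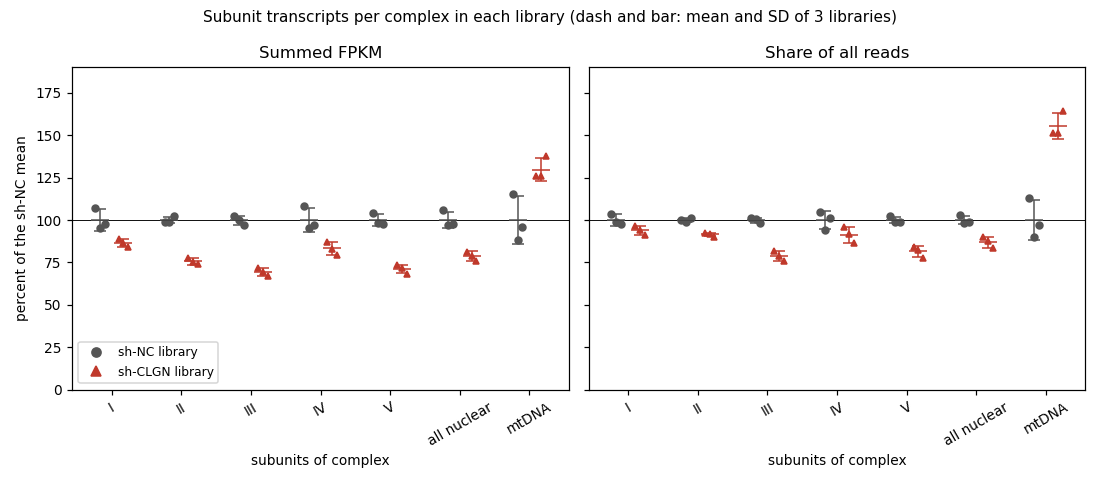
Level of the subunit transcripts of each complex in each library as a percent of the mean of the 3 sh-NC libraries, as summed FPKM on the left and as the share of all reads on the right, with the mean and SD of 3 libraries. The sh-CLGN points of all 5 complexes lie below 100 and overlap the sh-NC points only for the read share of complex IV, and those of the mtDNA-encoded subunits lie above, at means of 129.8% and 155.4%.

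Complex I, the entry point for electrons from NADH, had 19 lower and 3 higher members of 35 tested, at a median log2 fold change of -0.22. Its core subunits, which carry the flavin and the iron-sulfur clusters, were lower in 4 of the 5 described here. NDUFV1 (chr11:67605653-67612554), the flavoprotein that binds NADH, was measured at 136, 139.8 and 119 FPKM in sh-NC and 87.5, 85.1 and 88.5 FPKM in sh-CLGN (log2 fold change -0.59 ± 0.065, adjusted p = 1.26e-04). The gap between its groups was larger than the spread within them. NDUFS7, an iron-sulfur subunit, fell from a lower level, with 5.16, 4.53 and 4.07 FPKM in sh-NC and 3.17, 2.83 and 2.93 FPKM in sh-CLGN (log2 fold change -0.49 ± 0.085, adjusted p = 0.0014), and 48.5% of its coding bases are shared with an antisense gene. NDUFS8, another iron-sulfur subunit, stood at 67.4, 64.4 and 56.95 FPKM in sh-NC and 50.1, 50.8 and 48.4 FPKM in sh-CLGN (log2 fold change -0.33 ± 0.066, adjusted p = 0.0029). NDUFS1, the largest iron-sulfur subunit, fell least among the called core subunits described here, from 15.2, 15.5 and 16.1 to 13.1, 13.3 and 13.9 FPKM (log2 fold change -0.20 ± 0.05, adjusted p = 0.00824). NDUFS3, also of the core, missed the threshold at 17.2, 16.5 and 16.5 FPKM in sh-NC and 15.4, 15.8 and 13.9 FPKM in sh-CLGN (log2 fold change -0.15 ± 0.06, adjusted p = 0.0554). The call of NDUFS7 ended with the GC trend removed, that of NDUFS8 with quantile, read total and GC scaling, and that of NDUFS1 with TPM, quantile and read total scaling.

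The accessory subunits of complex I, which surround the core and are needed for its assembly and stability, had 14 lower and 3 higher of 29 tested (48.3% and 10.3%), at log2 fold changes of -0.40 to 0.41. That lower share was near the 43.5% of protein-coding genes. NDUFA10, on the matrix side, fell from 9.66, 8.88 and 8.93 to 6.801, 6.84 and 6.47 FPKM (log2 fold change -0.40 ± 0.057, adjusted p = 4.69e-04). The calls of 6 of the 14 (NDUFA1, NDUFA2, NDUFA3, NDUFA6, NDUFB10 and NDUFS6, at log2 fold changes of -0.35 to -0.20) ended when 1 library was left out, at values of -0.35 to -0.14 in those fits, and leaving out each of the 6 libraries ended at least 1 of them. The 3 that rose were NDUFS4, which holds the NADH-oxidizing module in place, NDUFB3 of the membrane arm, and NDUFA13, also known as GRIM-19. NDUFS4 (chr5:53560633-53683340) was at 18.3, 16.1 and 20.2 FPKM in sh-NC and 26.5, 26.8 and 20.6 FPKM in sh-CLGN (log2 fold change 0.41 ± 0.11, adjusted p = 0.0126), where the lowest sh-CLGN library was just above the highest sh-NC library. NDUFB3 was at 18.97, 20.1 and 25.5 FPKM in sh-NC and 29.9, 26.7 and 25.5 FPKM in sh-CLGN (log2 fold change 0.34 ± 0.11, adjusted p = 0.0251), and the nearest libraries of the 2 groups were at the same printed level, the sh-CLGN one slightly higher. Its call ended in 6 of the 18 alternatives, including the replicate block and leaving out sh-NC replicate 1, sh-NC replicate 2 or sh-CLGN replicate 1, where its log2 fold change was 0.26, 0.30 and 0.28. NDUFA13 was near the filter at 1.11, 1.57 and 1.53 FPKM in sh-NC and 2.13, 2.39 and 1.94 FPKM in sh-CLGN (log2 fold change 0.40 ± 0.10, adjusted p = 0.0107), and 55.2% of its coding bases are shared with a gene on the same strand, which held 3 to 28 reads a library. Its call ended with quantile normalization, and that of NDUFS4 with no filter on low values.

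Complex II, succinate dehydrogenase, which links the citric acid cycle to the chain, had all 4 subunits lower in sh-CLGN. SDHD (chr11:112086773-112120013), one of the membrane anchors, had the largest fall of any member, at 18.1, 18.4 and 19.2 FPKM in sh-NC and 10.01, 8.88 and 7.62 FPKM in sh-CLGN (log2 fold change -0.999 ± 0.087, adjusted p = 4.00e-05). The mean of sh-CLGN was 47.6% of that of sh-NC, and the groups were far apart. SDHA, the flavoprotein that oxidizes succinate, stood at 21.6, 21.3 and 19.2 FPKM in sh-NC and 15.7, 16.8 and 16.9 FPKM in sh-CLGN (log2 fold change -0.31 ± 0.061, adjusted p = 0.00244). SDHB, the iron-sulfur subunit, stood at 31.8, 32.1 and 35.5 FPKM in sh-NC and 28.99, 27.6 and 27.4 FPKM in sh-CLGN (log2 fold change -0.23 ± 0.057, adjusted p = 0.00708). SDHC, the other anchor, was at the threshold (log2 fold change -0.14 ± 0.053, adjusted p = 0.046), from 10.1, 9.52 and 10.3 to 9.14, 8.88 and 8.91 FPKM. The calls of SDHA and SDHB ended with quantile and read total scaling, that of SDHB also with TPM, and SDHC was called lower in 4 of the 19 fits. Without each library but sh-NC replicate 2 SDHC was not called, at log2 fold changes of -0.15 to -0.12. For SDHD, 47.7% of the coding bases are shared with a gene on the same strand, which held 0 or 1 read in each library.

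Complex III, which moves electrons from ubiquinol to cytochrome c, had the lowest median of the 5 complexes, -0.44, with 7 lower and 1 higher of 10 tested. Its catalytic subunits and its core proteins were lower in 4 of 4. CYC1, cytochrome c1, went from 96.2, 95.2 and 78.9 to 46.3, 48.1 and 50.4 FPKM (log2 fold change -0.88 ± 0.081, adjusted p = 4.89e-05). UQCRC2 (chr16:21952660-21983660), a core protein on the matrix side, stood at 24.002, 24.4 and 25.7 FPKM in sh-NC and 14.2, 15.1 and 14.6 FPKM in sh-CLGN (log2 fold change -0.72 ± 0.05, adjusted p = 1.41e-05). UQCRC1 (chr3:48599002-48610976), its partner, stood at 112, 112 and 101 FPKM in sh-NC and 69.4, 62.8 and 66.4 FPKM in sh-CLGN (log2 fold change -0.70 ± 0.06, adjusted p = 3.53e-05). The fall of the 2 partners differed little on the log2 scale, less than either standard error. UQCRFS1, the Rieske iron-sulfur protein, was at 35.5, 38.8 and 34.9 FPKM in sh-NC and 27.5, 26.1 and 24.5 FPKM in sh-CLGN (log2 fold change -0.47 ± 0.062, adjusted p = 3.31e-04). UQCR11, a small subunit, was at 24.2, 23.98 and 24.1 FPKM in sh-NC and 14.1, 15.03 and 13.9 FPKM in sh-CLGN (log2 fold change -0.71 ± 0.049, adjusted p = 1.30e-05), and 100% of its coding bases are shared with a gene on the same strand, which held 0 reads in every library.

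Among the other small subunits of complex III, UQCRH, the hinge protein, was at 112, 113 and 119 FPKM in sh-NC and 94.5, 88.6 and 77.8 FPKM in sh-CLGN (log2 fold change -0.40 ± 0.073, adjusted p = 0.00169), and its call ended with quantile normalization. UQCRHL, a near-identical copy of it whose reads may be split with UQCRH, was at 1.71, 1.51 and 1.45 FPKM in sh-NC and 2.19, 1.62 and 1.39 FPKM in sh-CLGN (log2 fold change 0.088 ± 0.12, adjusted p = 0.535). The log2 ratio of UQCRHL to UQCRH, taken on FPKM + 1, rose by 0.49, from -5.50 ± 0.12 to -5.01 ± 0.098 (SD, n = 3), and the groups did not overlap (two-sided exact permutation p = 0.1, which is the smallest that 3 against 3 libraries allow, 0.125 adjusted over 5 ratios). UQCRB, the ubiquinone-binding protein, was the only tested member of complex III to rise, at 6.32, 5.42 and 6.89 FPKM in sh-NC and 8.24, 8.16 and 7.66 FPKM in sh-CLGN (log2 fold change 0.33 ± 0.082, adjusted p = 0.00823), and its call ended with the GC trend removed, where its log2 fold change was 0.070.

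Complex IV, cytochrome c oxidase, had 6 lower and 0 higher of 13 tested, at a median of -0.19. Its share of lower members, 46.2%, was near the 43.5% of protein-coding genes. COX4I1 (chr16:85798633-85807044), the widely expressed form of the largest nuclear-encoded subunit, was at 76.7, 75.2 and 77.5 FPKM in sh-NC and 42.8, 41.3 and 38.1 FPKM in sh-CLGN (log2 fold change -0.89 ± 0.053, adjusted p = 7.19e-06). The mean of sh-CLGN was 53.3% of that of sh-NC, and the sh-NC libraries lay within a narrow range. COX7A2L, which joins complexes III and IV in supercomplexes, was at 16.2, 15.8 and 16.4 FPKM in sh-NC and 12.1, 10.4 and 10.9 FPKM in sh-CLGN (log2 fold change -0.50 ± 0.063, adjusted p = 2.45e-04). COX8A (log2 fold change -0.37 ± 0.10, adjusted p = 0.0126), COX6A1 (log2 fold change -0.35 ± 0.085, adjusted p = 0.00713) and COX5B (log2 fold change -0.33 ± 0.078, adjusted p = 0.0067) fell less, and COX5A, which was chosen after its values were seen, had log2 fold change -0.19 ± 0.067, adjusted p = 0.0359. The calls of COX8A, COX6A1 and COX5B ended with quantile and read total scaling, those of COX8A and COX5B also with the GC trend removed and that of COX8A with TPM or no filter. COX5A was called in 8 of 19 fits, with -0.19 to -0.13 and no call without sh-NC replicate 1, sh-NC replicate 3, sh-CLGN replicate 2 or sh-CLGN replicate 3. COX6B1 (log2 fold change -0.091 ± 0.057, adjusted p = 0.194), COX7A2 (log2 fold change -0.13 ± 0.086, adjusted p = 0.222) and COX7B (log2 fold change 0.15 ± 0.11, adjusted p = 0.276) were not called, and COX6B1 was higher with quantile normalization, at 0.22. COX7B was higher in 3 of the 18 alternatives, at 0.33 with quantiles, 0.33 with read totals and 0.27 without sh-NC replicate 1.

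Several complex IV subunits have a second form for muscle, lung, testis or low oxygen, and Hep-G2 cells held next to none of these transcripts. COX4I2, COX6A2, COX7B2 and COX8C had 0 reads in every library, COX6B2 had 0 to 3 and COX7A1 had 1 to 9. A count of 0 allows up to 3 reads. The fall of COX4I1 was thus not met by reads on COX4I2. NDUFA4, a subunit of complex IV by function, was at 60.9, 50.4 and 58.9 FPKM in sh-NC and 55.4, 53.4 and 52.8 FPKM in sh-CLGN (log2 fold change -0.069 ± 0.073, adjusted p = 0.435), and its low-oxygen form NDUFA4L2 at 1.405, 1.12 and 1.54 FPKM in sh-NC and 0.861, 1.09 and 0.971 FPKM in sh-CLGN (log2 fold change -0.25 ± 0.10, adjusted p = 0.0591). Their log2 ratio NDUFA4L2 to NDUFA4, taken on FPKM + 1, was -4.80 ± 0.11 under sh-CLGN and -4.61 ± 0.066 under sh-NC (SD, n = 3), a difference of -0.19 (two-sided exact permutation p = 0.1, 0.125 adjusted). At the low level of NDUFA4L2 the added 1 makes this difference smaller than that of the FPKM themselves. The call of NDUFA4 took opposite directions. It was higher at 0.22 with quantile normalization and lower at -0.26 with the GC trend removed and at -0.15 without sh-NC replicate 2. NDUFA4L2 was lower in 4 of the 18 alternatives, at -0.48 with quantiles, -0.33 without sh-NC replicate 2 and -0.25 with protein-coding genes only or no intensity trend.

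Complex V, the ATP synthase, had 8 lower and 0 higher of 18 tested, at a median of -0.19. The lower share, 44.4%, was near the 43.5% of protein-coding genes. The parts of the complex held at most 5 tested members each, and differences between the parts were not tested. In the F1 head and central stalk, which make ATP, 3 of 5 were lower. ATP5F1B (chr12:56638175-56646068), the catalytic beta subunit, had the highest level of all members and went from 568, 564 and 551 to 324, 323 and 304 FPKM (log2 fold change -0.82 ± 0.048, adjusted p = 6.64e-06). Its fall of 244 FPKM was 29.4% of the fall in the summed FPKM of the 92 members. ATP5F1A, the alpha subunit, was at 62.05, 63.9 and 62.7 FPKM in sh-NC and 43.7, 42.9 and 40.1 FPKM in sh-CLGN (log2 fold change -0.56 ± 0.049, adjusted p = 3.69e-05). The gamma subunit ATP5F1C, chosen after its values were seen like ATP5MF below, was also lower (log2 fold change -0.36 ± 0.064, adjusted p = 0.00146). In the peripheral stalk, which holds the head still, 0 of 4 were called, at log2 fold changes of -0.15 to 0.11, with 1 of 4 at an unadjusted p of at most 0.05 in limma and 0 of 4 called with voom on the recovered reads. Under the alternatives ATP5PB of that stalk was higher with quantile, read total, TPM and GC scaling, at 0.38, 0.30, 0.24 and 0.13. ATP5PF was higher with quantiles, at 0.22, and ATP5PO was lower without sh-CLGN replicate 1, at -0.20.

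The rotating ring of subunit c is encoded by ATP5MC1, ATP5MC2 and ATP5MC3, whose mature proteins are the same, and all 3 were lower. ATP5MC1 (chr17:48892765-48895871) was at 39.1, 33.8 and 29.5 FPKM in sh-NC and 21.2, 19.8 and 21.9 FPKM in sh-CLGN (log2 fold change -0.67 ± 0.096, adjusted p = 4.89e-04). ATP5MC2 was at 46.3, 38.9 and 37.9 FPKM in sh-NC and 32.9, 31.4 and 32.3 FPKM in sh-CLGN (log2 fold change -0.33 ± 0.076, adjusted p = 0.00532). ATP5MC3 was at 38.1, 35.05 and 35.6 FPKM in sh-NC and 32.02, 30.1 and 29.8 FPKM in sh-CLGN (log2 fold change -0.23 ± 0.053, adjusted p = 0.00513). The log2 ratio of ATP5MC1 to ATP5MC2 changed by -0.33 and that to ATP5MC3 by -0.43, without overlap of the groups (two-sided exact permutation p = 0.1 each, 0.125 adjusted), and that of ATP5MC2 to ATP5MC3 by -0.099 with overlap (exact permutation p = 0.2). The calls of ATP5MC2 and ATP5MC3 ended with quantile and read total scaling, that of ATP5MC2 also with the GC trend removed and that of ATP5MC3 with TPM. Among the membrane accessory subunits, ATP5MF was at 54.2, 38.8 and 39.7 FPKM in sh-NC and 27.02, 28.2 and 30.2 FPKM in sh-CLGN (log2 fold change -0.60 ± 0.12, adjusted p = 0.00277), where sh-NC replicate 1 stood above the other control libraries. ATP5IF1, the natural inhibitor of the synthase and not a subunit, was not called (log2 fold change -0.13 ± 0.072, adjusted p = 0.136), though without sh-NC replicate 3 it was lower, at -0.19.

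**Figure D3:**
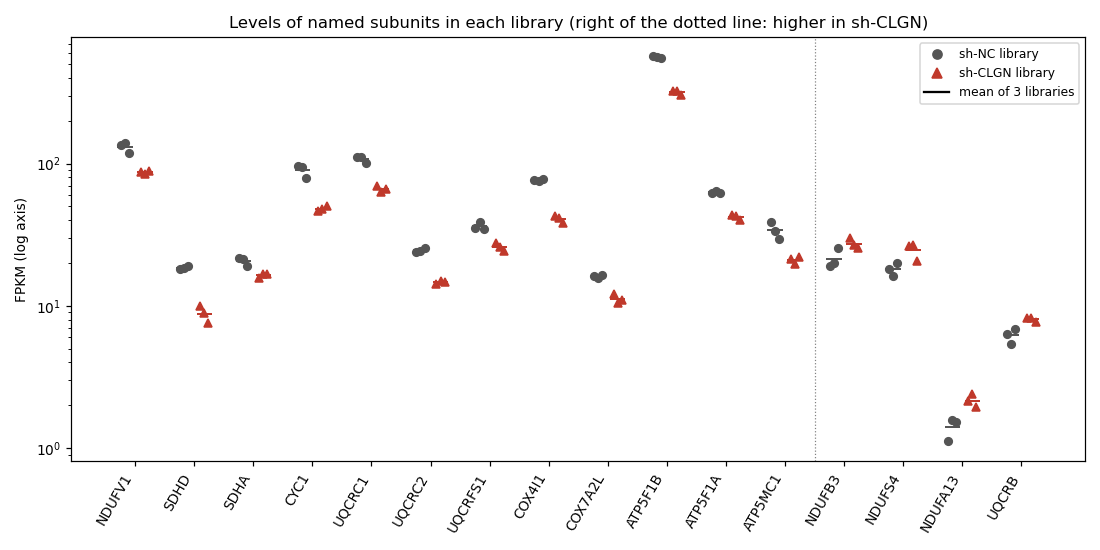
FPKM (log axis) of 16 members in each library, with sh-NC as circles, sh-CLGN as triangles and the mean of 3 libraries as a dash. The 12 members on the left have all 3 sh-CLGN libraries below the sh-NC libraries, as with ATP5F1B at 304.2 to 323.9 against 551.0 to 567.6 FPKM, and the 4 on the right have them above.

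Of the 92 members, 12 were below the expression filter. NDUFV2, an iron-sulfur core subunit of complex I, was read 10, 15 and 20 times under sh-NC and 60, 53 and 35 times under sh-CLGN, and NDUFA7 3 to 9 and 7 to 15 times. ATP5S was close to the filter at 0.914, 0.982 and 1.15 FPKM in sh-NC and 0.788, 0.886 and 0.927 FPKM in sh-CLGN. ATP5MGL and the readthrough gene ATP5MF-PTCD1 had at most 4 reads a library, and NDUFC2-KCTD14 had 0. The rest were the complex IV forms named above. Of the coding bases of NDUFV2 and NDUFA7, 84.7% and 78.3% are shared with a second annotated gene on the same strand, and the sources used here do not say how reads in shared bases were counted. Among members with at least 50% of their coding bases shared, 5 of 9 tested were lower and 1 higher, and among the others 39 of 71 were lower and 3 higher. Pseudogenes named for the members, 160 in all of which 56 had reads, took 0.486% ± 0.030 of the members' reads in sh-NC and 0.5001% ± 0.054 of them under sh-CLGN (SD, n = 3).

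Other genes of the pathway were read in the same fit, and those named here were chosen after their values were seen. Of 46 assembly factors tested, 19 were lower and 8 higher, at a median log2 fold change of -0.11, close to that of all genes. TMEM70, which assists the assembly of complex V, went from 12.9, 13.05 and 14.5 to 6.29, 6.65 and 6.75 FPKM (log2 fold change -0.94 ± 0.062, adjusted p = 1.12e-05), and SDHAF4, which helps to mature SDHA, fell as well (log2 fold change -0.93 ± 0.15, adjusted p = 9.16e-04). COX19, which serves copper delivery to complex IV, fell by the most in the list (log2 fold change -0.97 ± 0.061, adjusted p = 8.73e-06), whereas COX17, a copper chaperone, rose (log2 fold change 0.28 ± 0.075, adjusted p = 0.0103). Of 13 genes for cytochrome c and the synthesis of ubiquinone, 7 were lower and 2 higher, with CYCS, cytochrome c itself, at 43.5, 42.2 and 46.7 FPKM in sh-NC and 37.6, 34.8 and 32.3 FPKM in sh-CLGN (log2 fold change -0.33 ± 0.067, adjusted p = 0.00303). Of 9 regulators of mitochondrial biogenesis tested, 5 were lower and 1 higher. NRF1, a transcription factor of respiratory chain genes, went from 7.98, 8.19 and 7.54 to 4.46, 3.59 and 3.65 FPKM (log2 fold change -0.86 ± 0.08, adjusted p = 5.23e-05), and ESRRA, a nuclear receptor that acts with PGC-1 coactivators, was lower too (log2 fold change -0.69 ± 0.064, adjusted p = 5.54e-05). Of these coactivators PPARGC1B and PPRC1 were lower, at -0.34 and -0.28. PPARGC1A was below the filter and not tested, at 0.462, 0.334 and 0.321 FPKM in sh-NC and 0.824, 0.808 and 0.906 FPKM in sh-CLGN. GABPA, the DNA-binding part of an ETS factor, rose (log2 fold change 0.57 ± 0.076, adjusted p = 3.23e-04), whereas GABPB1, another part of that factor, was lower (log2 fold change -0.29 ± 0.075, adjusted p = 0.0101). YY1 was not called (log2 fold change 0.055 ± 0.047, adjusted p = 0.329). TFAM, which packages mtDNA, was not called either (log2 fold change 0.12 ± 0.061, adjusted p = 0.11). Among 13 general mitochondrial markers 9 were lower and 1 higher, at a median of -0.29, close to that of the members. VDAC1, the outer membrane pore, fell (log2 fold change -0.57 ± 0.047, adjusted p = 2.98e-05), while TOMM20 of the import machinery rose (log2 fold change 0.63 ± 0.051, adjusted p = 2.62e-05). The part of the regulators in the levels of the members was not tested.

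The members with long coding sequences tended to fall more. Of 32 members with at least 500 coding bases, 22 were lower and 1 higher, at a median log2 fold change of -0.33, and of 48 shorter members 22 were lower and 3 higher, at -0.19. Among all tested genes with a coding sequence, 43.8% of those with at least 500 coding bases and 40.3% of the shorter ones were lower, at medians of -0.12 and -0.11. Spearman's rho of the fold change with the coding length was -0.32 across the 80 members and 0.078 across 10986 tested genes, and that with the GC content of the transcripts was -0.35 and -0.32. With the mean level it was -0.20 across the members, -0.33 across all tested genes and -0.29 across protein-coding ones. Genes of higher level thus tended to fall more in general, and the median level was 27.5 FPKM for the members and 6.03 FPKM for all tested genes. The part of the level in the fall of the members was not tested. These correlations are across genes of the same 6 libraries and carry no test. With the GC trend removed from each library the median of the members was -0.15, beside -0.0042 for all genes.

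**Figure D4:**
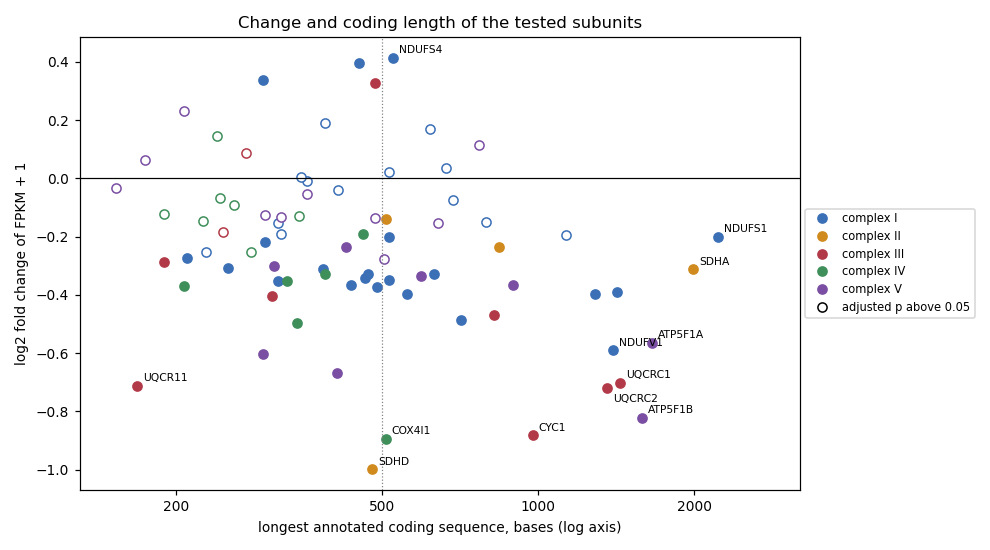
Log2 fold change (y axis, log2(FPKM + 1) scale) of 79 of the 80 tested members against the length of the longest annotated coding sequence (x axis, bases, log axis), coloured by complex, with open points for an adjusted p above 0.05. Right of the dotted line at 500 bases 21 of the 31 plotted members are lower, and left of it 22 of 48.

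Short words taken from the 3′ end of the hairpin's target (the word TACCACA and, shifted by 1 base each way, the words ATACCAC or else ACCACAA) were looked for in annotated 3′ UTRs (GENCODE 29) because a hairpin can act on other transcripts through such letters. They were in 15 members, 13 of them tested, of which 8 were lower and 0 higher at a median of -0.35, and of 67 members without them 36 were lower and 4 higher at -0.23. Among all tested genes with a 3′ UTR, 44.8% of those with and 43.1% of those without such a word were lower. SDHD, with the largest fall, had ATACCAC once in a 3′ UTR of 824 bases, shown here in 30 bases with the word in capitals. Whether the hairpin acts on any of these transcripts was not tested.
SDHD: ctagacagtagATACCACctactgatggtt

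**Figure D5:**
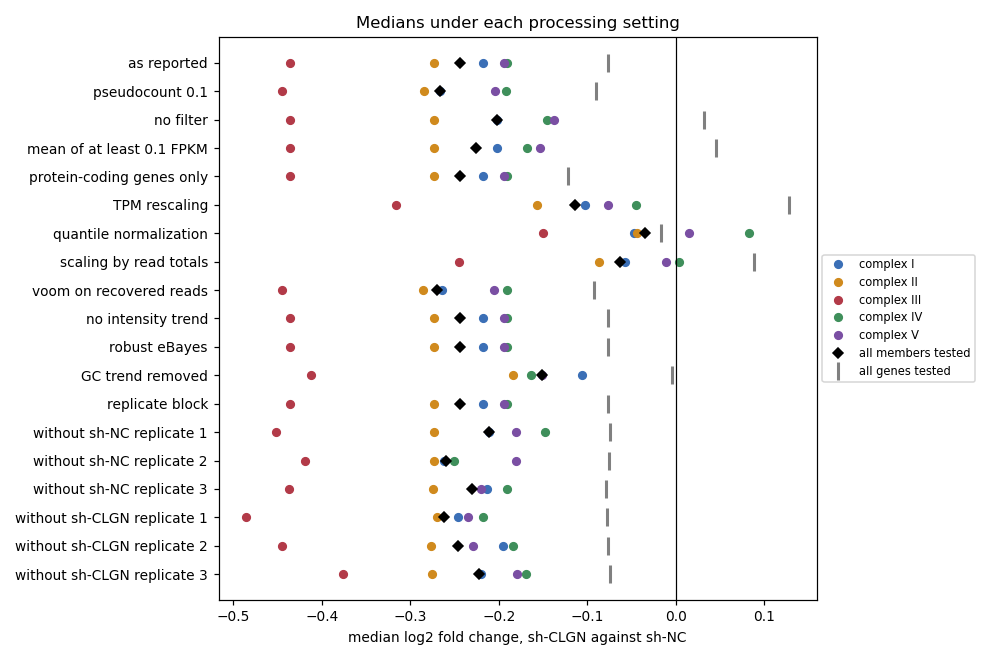
Median log2 fold change (x axis) of the members of each complex, of all members tested and of all genes tested, under the reported setting and 18 alternatives (y axis). Complex III has the lowest median under every setting, from -0.49 to -0.15, and the medians of complexes IV and V cross 0 with quantile normalization, at 0.082 and 0.014.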

How the data were processed

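RNA sequencing of 3 sh-NC and 3 sh-CLGN libraries of Hep-G2 cells was used. The values deposited by the authors are FPKM, given for each gene in each library beside the gene's length and position. The labels name HISAT2 2.0.5, featureCounts and GRCh38, and the counting options are not given in the sources used here. The positions of all 58735 genes equalled GENCODE 29, and columns named KD were taken as sh-CLGN. FPKM times gene length fell on whole reads for 100% of the values (tolerance 0.01 of a read), which gave back the reads per gene. The deposited scaling divided by 1.07 to 1.08 times the read total under sh-CLGN and by 0.933 to 0.953 times it under sh-NC. A size factor was also taken from the deposited FPKM, as the median ratio to the geometric mean over genes above 0 in all libraries. It was 1.008 in all 6 libraries, so the deposited values were already level on that measure.

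Genes that reached 1 FPKM in 3 or more libraries were tested with limma 3.58.1 in R 4.3.3 (eBayes with an intensity trend, two-sided) on log2(FPKM + 1), a scale that understates the change of low genes, and p-values were adjusted over all 13074 tested genes by Benjamini-Hochberg. Errors beside log2 fold changes are standard errors. The study's methods name no test for its sequencing data. Lower and higher mean an adjusted p of at most 0.05. Named are, in each complex, the 3 lower and the 3 higher members with the smallest adjusted p, the catalytic and core subunits, the isoform pairs and the members below the filter, except 1 member that is not reported here. The members, the lists and these rules were chosen with earlier results of these data known, so they are not independent of them. Isoform ratios are differences of log2(FPKM + 1) and used an exact permutation test over libraries. The added 1 shifts the ratio and its change where an isoform is low, as with NDUFA4L2 and UQCRHL. Simulated data were used to test the fit. Intervals were not computed, and floors of 3 reads cover counting error only. Alternatives were a pseudocount of 0.1, other filters, protein-coding genes only, TPM, quantile, read total and GC scaling, voom, other eBayes options, the replicate block and leaving out each library. Tables and figures used Python 3.11.15 with pandas 2.3.3, numpy 2.4.6, scipy 1.17.1 and matplotlib 3.10.9. Promoter windows came from RefSeq (GRCh38.p14). NDUFB5, NDUFB9, NDUFC2, NDUFS5, SDHC, CYC1, UQCRB, UQCRHL, COX4I2, COX6C, COX7A1, ATP5F1B, ATP5F1D, ATP5MC3, ATP5MF, ATP5MF-PTCD1, ATP5MGL and ATP5S were among those with no match there.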

Additional observations from a re-analysis of the deposited data

Results flagged for a closer look

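NDUFV2, a core iron-sulfur subunit of complex I, lay below the expression filter and so outside the comparison as reported, yet it had a level in sh-CLGN above that in the controls. Where an alternative let it in, limma called it higher. Its log2 fold change was 1.16 with TPM rescaling (adjusted p = 0.00356) and 0.61 with no filter (adjusted p = 0.0179). It stood at 0.264, 0.379 and 0.477 FPKM under sh-NC (10, 15 and 20 reads) and at 1.305, 1.19 and 0.7996 FPKM in sh-CLGN (60, 53 and 35 reads), with a mean of 1.10 FPKM in sh-CLGN and no overlap between the groups. The other core subunits of complex I stood at 2.83 to 139.8 FPKM. Of its coding bases, 84.7% are shared with a second gene on the same strand, which held 0 reads in every library, and the part of this overlap in the level of NDUFV2 was not tested.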

How the results depend on the processing

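With TPM, quantile and read total scaling 28, 20 and 20 members were lower and 9, 15 and 13 higher, and with the GC trend removed 36 were lower and 7 higher. The median of the members was then -0.11, -0.035, -0.063 and -0.15. For complexes I, II, III, IV and V in turn the medians were -0.10, -0.16, -0.32, -0.045 and -0.076 with TPM, -0.047, -0.044, -0.15, 0.082 and 0.014 with quantiles, and -0.058, -0.087, -0.24, 0.0033 and -0.011 with read totals. With the GC trend removed complexes I and II were at -0.11 and -0.18, and with a pseudocount of 0.1 complex I was at -0.27. Of the members called as reported, 6 changed sign under an alternative, all of them lower before. With quantiles COX5A was at 0.13, NDUFB10 at 0.086, ATP5MC3 at 0.042, SDHB at 0.036 and NDUFA1 at 0.0076. With read totals SDHC was at 0.037 and COX5A at 0.0033, and with the GC trend removed NDUFB10 was at 0.046. The other sign changes named here are of members that were not called as reported. COX6B1 was at 0.035, 0.22, 0.10 and 0.11 with TPM, quantile, read total and GC scaling. NDUFA4 was at 0.057, 0.22 and 0.12 with the first 3 of these and at -0.26 with GC scaling, and it was called higher with quantiles and lower with GC scaling. NDUFS3 was at 0.055, 0.034 and 0.043 with the last 3, and COX7A2 at 0.16 and 0.064 with quantiles and read totals. UQCRHL was at -0.049 with quantiles and between -0.028 and 0.18 when 1 library was left out, the ends without sh-CLGN replicate 1 and sh-CLGN replicate 3, and NDUFA4L2 was at 0.030 with the GC trend removed. The cause of these changes was not tested. Leaving out 1 library gave 38 to 47 lower and 3 to 6 higher members, and 36 of the 44 lower calls held in all 6 such fits, the exceptions being NDUFA1, NDUFA2, NDUFA3, NDUFA6, NDUFB10, NDUFS6, SDHC and COX5A. The median of the members was then -0.26 (without sh-CLGN replicate 1) to -0.21 (without sh-NC replicate 1) and that of complex III -0.49 to -0.38, the ends without sh-CLGN replicate 1 and sh-CLGN replicate 3.

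The same replicate numbers occur in both groups, but they did not pair the samples (correlations of deviations -0.018, -0.046 and -0.15), and with the replicate block 42 members were lower and 3 higher. The remaining alternatives (other filters, protein-coding genes, voom, other eBayes options) gave 34 to 49 lower and 3 to 5 higher members. The ends for lower members were no filter, with 39.1% of members against 14.1% of genes, and protein-coding genes only, with 61.25% against 45.3%. Depth limits the 12 members below the filter and, among those tested, NDUFA4L2, NDUFA13 and UQCRHL, with 41, 42 and 48 reads in their lowest library.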
